A study of Mus musculus with 16 samples.

Results

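The subject here is 9 transcription factors of the kidney duct lineage, followed through 16 RNA-seq libraries of mIMCD3 cells, a mouse inner medullary collecting duct line. The 9 genes (Pax2, Pax8, Gata2, Gata3, Elf3, Tfcp2l1, Emx1, Emx2 and Grhl2) were read by symbol from the 55367 gene symbols of each count table, and all 9 were found. The 8 groups of 2 biological replicates had been sequenced to ask how Nrf2, the transcription factor encoded by Nfe2l2, and its activator sulforaphane (SFN) bear on the response to hyperosmotic stress (HS). WT cells had received DMSO or 10 µM SFN for 5 h and were then kept isosmotic or moved to medium of 600 mOsm for 1 h or 6 h. Nrf2-/- cells, made with Cas9 and a guide RNA delivered by lentiviruses under blasticidin and puromycin selection, had all received SFN and were isosmotic or stressed for 1 h. No step of single-cell cloning is described for the Nrf2-/- line, and whether the WT cells carried Cas9 or a control guide is not stated in the sources used here. Nrf2-/- cells with DMSO, and Nrf2-/- cells at 6 h of HS, were not analysed here, so each genotype difference below holds for SFN-treated cells. No other Nrf2-/- line is described, and the replicates are not said to be separate knockouts. The loss of Nrf2 and other traits of the Nrf2-/- line thus cannot be told apart.

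Pax2 and Pax8, paired-box factors, start the nephric lineage and stay on in the collecting duct. Gata3 and Gata2, zinc finger factors, act in the nephric and ureteric duct, and Emx2, a homeobox factor, is needed for the ureteric bud, while Emx1 is its close relative best known from the forebrain. Grhl2 and Tfcp2l1 belong to separate branches, grainyhead and CP2, of a wider family. They and Elf3, an Ets factor of epithelia, keep up epithelial and duct cell states, with Grhl2 acting on junction genes such as Cdh1 and Cldn4.

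The promoters of Pax2 and Pax8 are shown because these 2 members had the largest changes after 6 h of HS. The 250 bases before a transcription start listed by RefSeq (GRCm38.p6) lie at chr19:44755502-44755751 on the plus strand for Pax2, ending 293 bases before the gene's start in GENCODE, and at chr2:24475600-24475849 on the minus strand for Pax8. RefSeq lists 3 windows for Pax2, with 52.8%, 60.8% and 72.8% G and C, of which the second is shown. The bases just after its start lie in no GENCODE transcript, while those after the third, at chr19:44756656-44756905, do. Both sequences are written 5′ to 3′, and capitals mark a CCAAT box.
Pax2: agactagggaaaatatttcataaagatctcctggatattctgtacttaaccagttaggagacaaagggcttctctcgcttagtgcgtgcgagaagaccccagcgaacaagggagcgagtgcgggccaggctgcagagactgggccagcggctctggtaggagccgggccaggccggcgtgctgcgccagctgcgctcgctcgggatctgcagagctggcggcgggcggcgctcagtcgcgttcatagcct
Pax8: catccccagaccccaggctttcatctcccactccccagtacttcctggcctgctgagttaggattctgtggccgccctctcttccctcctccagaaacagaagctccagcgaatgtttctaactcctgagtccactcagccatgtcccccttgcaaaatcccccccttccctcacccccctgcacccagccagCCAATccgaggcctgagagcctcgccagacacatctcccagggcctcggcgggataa
The Pax2 window had 60.8% G and C and the Pax8 window 60.4%, against a median of 52.4% over all 32851 RefSeq windows of this length. On either strand, neither held TGGAAA, the core bound by Nfat5 and other NFAT proteins (18.6% of all windows), TGACNNNGC, the core of the antioxidant response element (10.2%), or AGATAA, bound by GATA factors (9.99%). The Pax8 window held 1 CCAAT box, a motif of 33.8% of all windows, and the Pax2 window held none. Windows were listed for 8 members, 11 windows in all, and 3 further motifs were in none of the 11. These were GCGTGAC for paired-box factors (in 1.78% of all windows), AACCGGTT for grainyhead factors (0.116%) and TAATTA for homeobox factors (4.84%). Overlap between motifs was allowed, and the absence of these letters concerns these windows alone.

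Total counts per library lay between 34484296 and 50774875. The targeted gene, Nfe2l2, had 2496 to 5013 counts in the 12 WT libraries and 386 to 433 in the 4 Nrf2-/- libraries, and was 6.37-fold lower in Nrf2-/- cells under isosmotic conditions (adjusted p = 1.14e-10). The 2 Nrf2-/- libraries at 1 h of HS stood apart from each other, with a biological coefficient of variation of 0.348 between them against 0.0395 to 0.128 in the other 7 groups. As for the label of the cells, the keratin genes Krt8 (650.3 to 1109 CPM) and Krt18 (518 to 914 CPM) were high in all 16 libraries. Both come from a list of duct epithelium markers and were picked after their values were seen. On the same list, Calb1 was at 0 in the isosmotic libraries, and Tmem45b in the isosmotic Nrf2-/- ones. In isosmotic WT DMSO libraries that list summed to 3109 to 3525 CPM, and mesenchymal and fibroblast markers to 3047 to 3261 CPM. Defining markers of mature principal and intercalated cells were not high. The water channel Aqp2 reached at most 0.323 CPM, the vasopressin receptor Avpr2 0.283 CPM, and Foxi1, the master factor of intercalated cells, 0.0618 CPM.

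Levels below are CPM, counts scaled to a common library size, after TMM normalization. Each difference is a log2 fold change with its standard error (SE) from edgeR's quasi-likelihood F-test on 19509 genes, with Benjamini-Hochberg adjusted p over all of them and a call at adjusted p under 0.05. Of the 9 members, 8 passed the filter on low counts. Emx1 did not: it had 0 or 1 count in 12 libraries, 2 and 5 counts in the WT DMSO libraries at 6 h of HS, and 4 and 6 in the WT SFN libraries at 6 h.

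Levels of different genes can be compared only per length of exon. Per kilobase, Pax2 stood highest in isosmotic WT DMSO cells (22.1 CPM per kb), followed by Pax8 (15.9), Elf3 (13.9), Emx2 (11.8), Grhl2 (4.29), Tfcp2l1 (2.93), Gata3 (1.57) and Gata2 (0.361), and no 2 neighbours in this order overlapped between libraries. The order was different in isosmotic Nrf2-/- SFN cells, where Emx2 led (12.5 CPM per kb), Grhl2 (10.3) and Pax8 (10.1) overlapped, and Tfcp2l1 (6.64), Pax2 (4.97), Elf3 (4.45), Gata3 (0.128) and Gata2 (0.0158) followed. After 6 h of HS in WT DMSO cells, Pax2 (211 CPM per kb) and Pax8 (119) stood far above Emx2 (24.2), Elf3 (22.5) and the rest, which were at 3.15 or lower.

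**Figure D1:**
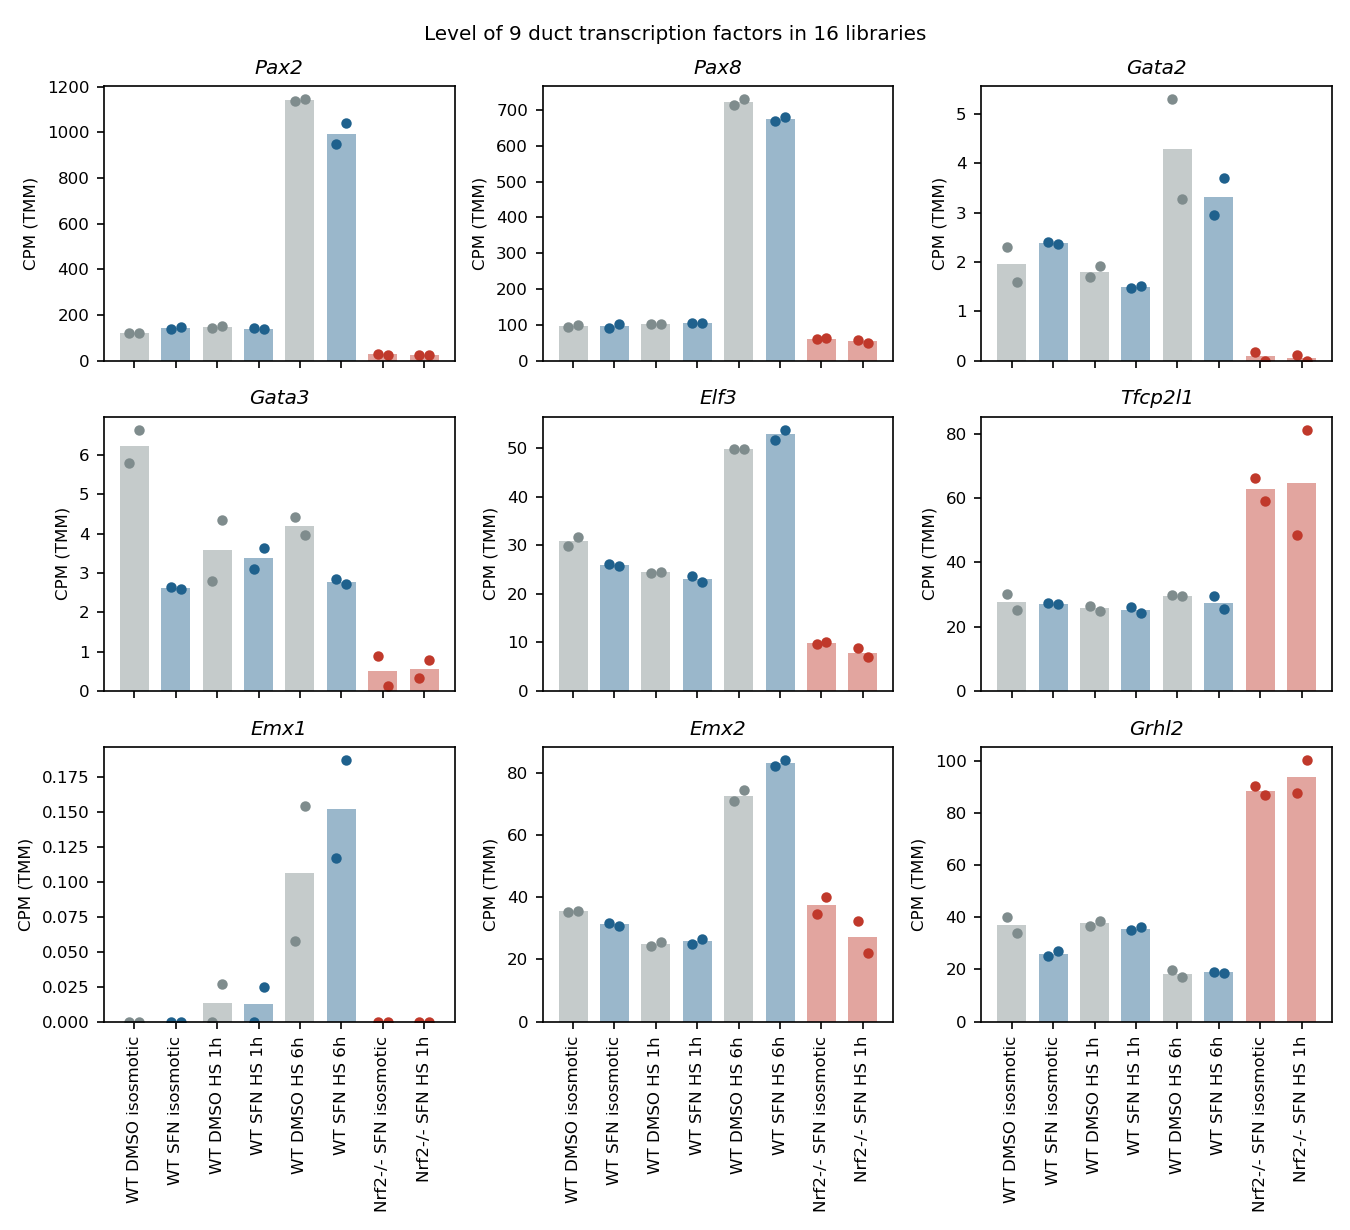
Level of each of the 9 genes in CPM after TMM normalization (linear axes from 0, a scale per gene), with points for the 2 libraries of each group and bars for their mean; grey is WT with DMSO, blue WT with SFN and red Nrf2-/- with SFN. Pax2 and Pax8 stand highest in the 4 libraries at 6 h of HS, Gata2, Gata3 and Elf3 lowest in the 4 Nrf2-/- libraries, and Tfcp2l1 and Grhl2 highest in the Nrf2-/- libraries.

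The genotype comparison asked which members differed between Nrf2-/- and WT cells, both with SFN. Under isosmotic conditions 5 of 8 tested members were lower in Nrf2-/- cells (Pax2, Pax8, Gata2, Gata3 and Elf3), 2 were higher (Tfcp2l1 and Grhl2), and Emx2 did not pass the test. Of all 19509 genes, 34.1% were called in this comparison, 15.7% higher and 18.4% lower, so a call by itself is common here. The median log2 fold change of the members was -1.03, beside -0.00091 over all genes tested. Among bulk cells, fewer cells that express a gene and less of its RNA per cell cannot be told apart.

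Pax2 stood at 139 and 146 CPM in the isosmotic WT SFN libraries and at 27.5 and 26.2 CPM in the Nrf2-/- libraries. It was 5.30-fold lower (log2 fold change -2.41, SE 0.092, adjusted p = 9.64e-11), with all 4 Nrf2-/- libraries below all 12 WT libraries. Pax8 fell less: 91.3 and 101 CPM in WT against 60.4 and 61.8 CPM, or 1.57-fold lower (log2 fold change -0.65, SE 0.095, adjusted p = 8.03e-05). The lowest WT library of either Pax gene was above the highest Nrf2-/- library.

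The GATA factors were very low in Nrf2-/- cells. Gata2 had 90 and 128 counts in the isosmotic WT SFN libraries, and 6 and 0 counts in the Nrf2-/- libraries, a ratio of WT to Nrf2-/- levels of 28.8 (95% interval from counting error alone, 13 to 79.4; edgeR adjusted p = 7.07e-05). Gata3 had 99 and 140 counts in WT and 31 and 5 in Nrf2-/- libraries, a ratio of 5.27 (3.70 to 7.70; adjusted p = 0.00202). The 2 Nrf2-/- libraries differed from each other for both genes, yet neither reached the level of any WT library. Without the first Nrf2-/- library the fitted log2 fold change of Gata2 went from -4.79 to -9.53 and that of Gata3 from -2.38 to -4.26. The library then left has 0 counts of Gata2, so -9.53 is set by the fit and is not a measured size. Without the second library the log2 fold changes were -3.79 and -1.57.

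Elf3 stood at 26.2 and 25.8 CPM in WT SFN cells and at 9.59 and 10.1 CPM in Nrf2-/- cells, 2.64-fold lower (log2 fold change -1.40, SE 0.12, adjusted p = 4.28e-07). In the opposite direction, Grhl2 went from 25.2 and 26.9 CPM in WT to 90.3 and 86.8 CPM in Nrf2-/- cells, 3.40-fold higher (log2 fold change 1.76, SE 0.12, adjusted p = 2.58e-08). Tfcp2l1 stood at 27.3 and 27.1 CPM in WT and at 66.4 and 59.0 CPM in Nrf2-/- cells, 2.30-fold higher (log2 fold change 1.20, SE 0.18, adjusted p = 0.000129). For both Grhl2 and Tfcp2l1 every Nrf2-/- library lay above every WT library. Emx2, at 31.8 and 30.7 CPM in WT and 34.7 and 40.1 CPM in Nrf2-/- libraries, had a log2 fold change of 0.26 (SE 0.14, adjusted p = 0.190).

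After 1 h of HS the 7 members called under isosmotic conditions were called again in the same directions, where 31.5% of all genes were called. Pax2 was 5.92-fold lower in Nrf2-/- cells (adjusted p = 5.55e-11), Elf3 2.92-fold lower (1.98e-07) and Pax8 1.93-fold lower (2.71e-06). The counts of Gata2 were 56 and 61 in WT and 4 and 0 in Nrf2-/- libraries (ratio 26.1, 9.94 to 97.5), and those of Gata3 119 and 146 against 12 and 27 (ratio 6.07, 4.32 to 8.73). The fitted log2 fold change of Gata2 was -4.63 (adjusted p = 0.000269), but -8.85 without the first and -3.68 without the second Nrf2-/- library. The value of -8.85 again rests on a library with 0 counts and is not a measured size. That of Gata3 was -2.59 (adjusted p = 0.00108), but -2.10 without the first and -3.30 without the second. Grhl2 was 2.63-fold higher (adjusted p = 3.04e-07) and Tfcp2l1 2.58-fold higher (4.79e-05), the latter with 48.4 and 81.3 CPM in the 2 Nrf2-/- libraries that stood apart. With only the 4 libraries of this comparison in the fit, Tfcp2l1 had an adjusted p of 0.0524. Emx2 had a log2 fold change of 0.073 (SE 0.15, adjusted p = 0.754), and its 2 Nrf2-/- libraries (32.5 and 21.9 CPM) spanned the WT libraries (25.0 and 26.7 CPM).

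The headers of 3 of the 4 Nrf2-/- count tables, and of 0 of the 12 WT tables, lacked the ending that the others share. The isosmotic Nrf2-/- library whose table has that ending stood at 27.5 CPM for Pax2 and 90.3 CPM for Grhl2. The other isosmotic Nrf2-/- library stood at 26.2 and 86.8 CPM. Their counts were further apart for Gata2 (6 against 0) and Gata3 (31 against 5). The part of the header difference in the members' levels was not tested.

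**Figure D2:**
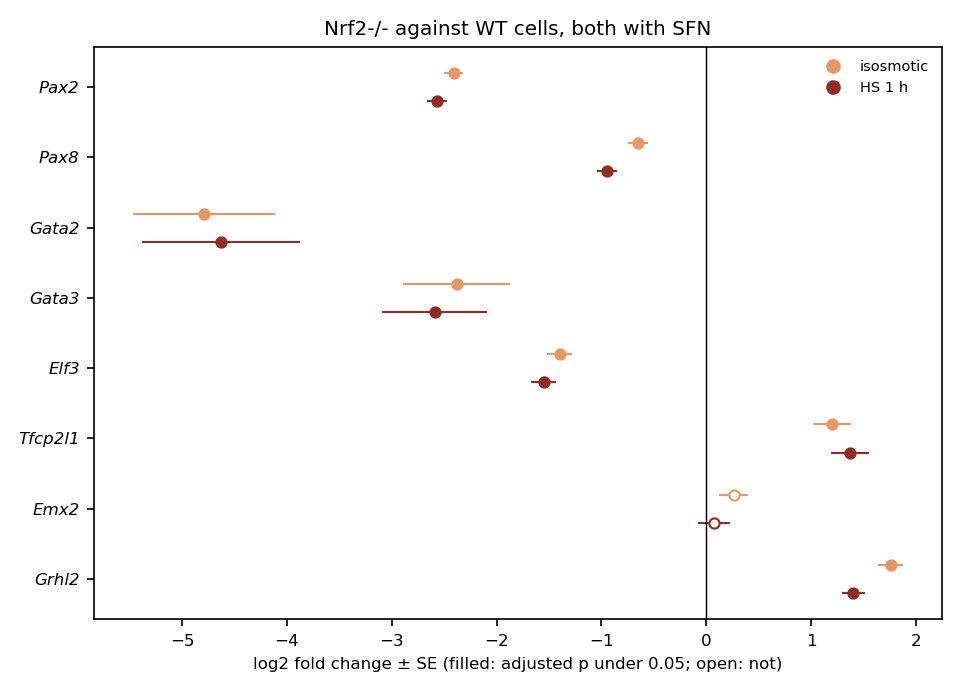
Log2 fold change of Nrf2-/- against WT cells (x axis, bars are ±SE) for the 8 tested members, isosmotic and at 1 h of HS, both with SFN; filled points have an adjusted p under 0.05. Pax2, Pax8, Gata2, Gata3 and Elf3 lie left of 0, Tfcp2l1 and Grhl2 right of it, and Emx2 is open in both.

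Genes around the members in the epithelial programme also differed between the genotypes. Of 14 epithelial genes described as bound by Grhl2 in other epithelia, 9 were higher and 0 lower in isosmotic Nrf2-/- cells, beside 15.7% and 18.4% of all genes. The median log2 fold change of the 14 was 1.54, beside -0.00091 over all genes. Among them the cell adhesion molecule Epcam was 5.82-fold higher (48.8 to 284 CPM, adjusted p = 6.21e-07), Rab25, a trafficking GTPase, 4.09-fold higher (6.52e-08), and Ovol2, a repressor of mesenchymal genes, 14.4-fold higher from 0.324 CPM (4.49e-05). Prom2, a protein of membrane protrusions, rose from 0.138 to 4.94 CPM (adjusted p = 0.000135). At 1 h of HS 10 of the 14 were higher and 1, the protease inhibitor Spint1, lower (log2 fold change -0.32, adjusted p = 0.0314). Of all genes, 15.3% were higher and 16.2% lower there.

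Of 15 tested mesenchymal and fibroblast markers, 7 were lower in isosmotic Nrf2-/- cells and 3 higher, beside 18.4% and 15.7% of all genes. The median log2 fold change of these markers was -0.35. Their summed level was 3315 to 3466 CPM in the Nrf2-/- and 2896 to 3107 CPM in the WT SFN libraries, and its part in the members' differences was not tested. Twist1, a mesenchymal basic helix-loop-helix factor, had 660 counts over the 2 WT SFN libraries and 0 in the Nrf2-/- libraries, at least 175-fold lower when 3 counts over the group are taken as the floor. Foxd1, a factor of the kidney stroma, fell from 84.3 to 1.89 CPM (adjusted p = 2.35e-12), Zeb1, a repressor of epithelial genes, from 17.9 to 0.613 CPM (4.18e-10) and the smooth muscle actin Acta2 from 6.43 to 0.450 CPM (3.80e-07). The list did not move as one, since the fibronectin gene Fn1 was 1.81-fold higher (adjusted p = 3.19e-05) and the collagen genes Col3a1 and Col1a2 rose from 0 counts to 129 and 33 counts.

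Of 9 tested duct markers 1 was higher and 2 were lower (11.1% and 22.2%, beside 15.7% and 18.4% of all genes), a share near that of all genes, with a median log2 fold change of -0.15, or -0.09 with 1 gene at 0 counts set to its bound. Cdh16, a cadherin of kidney tubules, stood at 202 and 199 CPM in WT SFN and 20.1 and 21 CPM in Nrf2-/- libraries (9.77-fold lower, adjusted p = 7.62e-09), and the tetraspan protein gene Mal was 2.14-fold lower (5.22e-07). The keratin gene Krt7 was 5.02-fold higher (2.75e-08). Among 17 tested other factors of duct and epithelium, 7 were higher and 4 lower, with a median of 0.34. Ehf, an Ets factor of epithelia and a relative of Elf3, had 837 counts over the WT SFN libraries and 0 in the isosmotic Nrf2-/- libraries (at least 222-fold lower), while Sox9, a factor of ureteric tips, was 6.35-fold higher (adjusted p = 7.97e-10), and the mineralocorticoid receptor gene Nr3c2 was 4.50-fold lower (0.00254).

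Markers of other nephron lineages were read in the same comparison, where 34.1% of all genes were called. All 5 tested nephron progenitor and podocyte markers were called, 2 higher and 3 lower, and the list summed to 123 to 138 CPM in isosmotic Nrf2-/- and 43.4 to 44.2 CPM in WT SFN libraries. Podxl, a podocyte sialomucin, was 3.79-fold higher (32.2 to 122 CPM, adjusted p = 5.51e-08), Osr1, a factor of the early kidney field, rose from 0.0670 to 6.41 CPM (6.28e-07), and Synpo, an actin-binding protein of podocytes, was 5.91-fold lower (3.47e-07). Proximal tubule markers summed to 2.66 to 3.58 CPM in Nrf2-/- and 10.0 to 13.2 CPM in WT SFN libraries. Only 1 of 6 tested was called, a share below that of all genes. It was the endocytic receptor gene Lrp2 (6.86 to 0.169 CPM, adjusted p = 9.72e-07), which held much of the WT sum. Loop of Henle and distal tubule markers summed to 53.0 to 58.2 CPM in Nrf2-/- and 37.1 to 40.2 CPM in WT SFN libraries. The part of these lists in the members' differences was not tested.

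The members' own families did not move together. Of 11 tested relatives 4 were higher and 4 lower in isosmotic Nrf2-/- cells (36.4% each, median 0.090), beside 15.7% and 18.4% of all genes. Gata6 had 1371 counts over the WT SFN libraries and 0 in the Nrf2-/- libraries (at least 363-fold lower), and Pax3 fell from 9.35 to 0.0537 CPM (adjusted p = 8.50e-08), whereas Grhl3 was 2.80-fold higher (0.00246) and Elf4 1.86-fold higher (0.000210). Of 13 ureteric bud signalling genes 5 were higher and 3 lower, beside the same shares of all genes. Their median log2 fold change was 0.00 with 2 genes at 0 counts set to their bound. Gfra1, the GDNF co-receptor, was 8.48-fold lower (adjusted p = 9.46e-06), its ligand gene Gdnf 4.51-fold higher (1.02e-08) and Slit2, a guidance ligand, 17.1-fold higher (3.27e-10), and Bmp7 had 887 counts in WT and 0 in Nrf2-/- libraries (at least 235-fold lower).

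**Figure D3:**
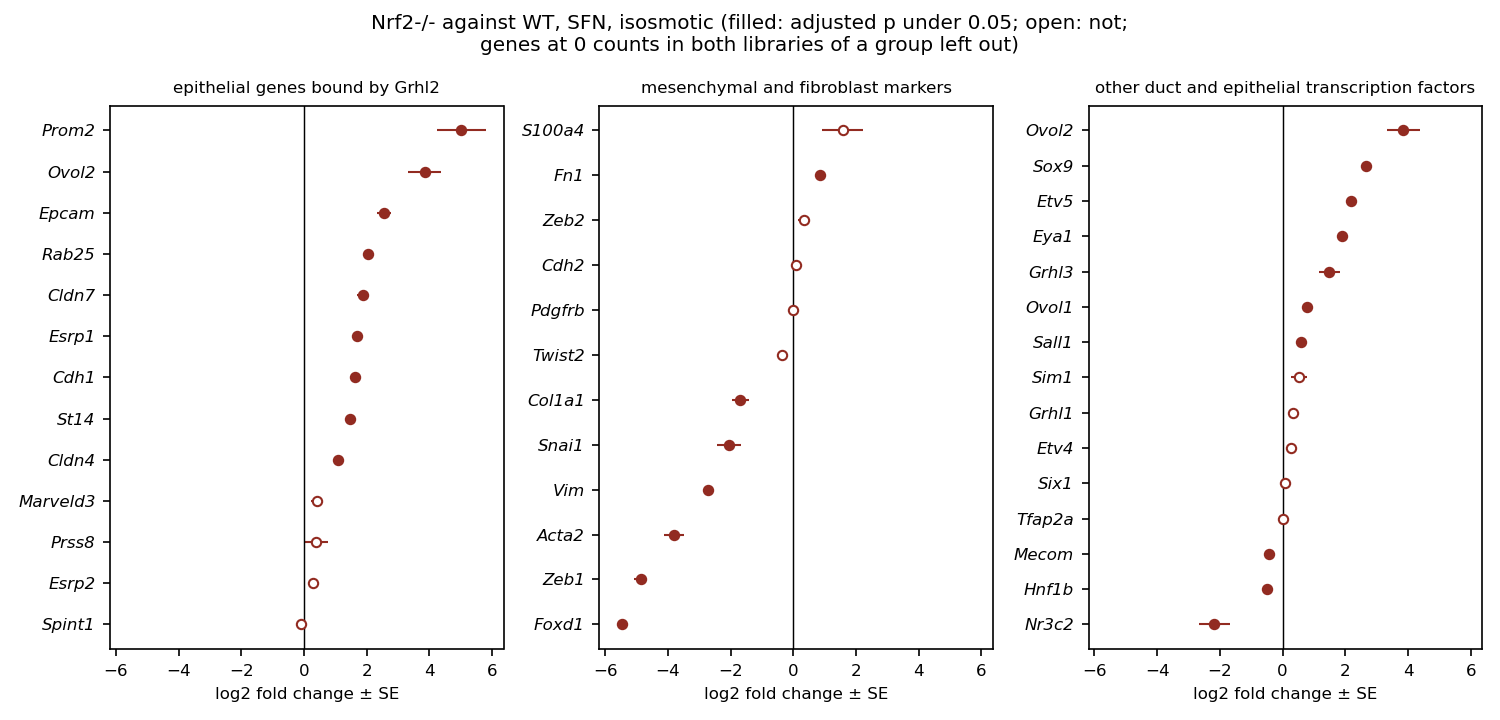
Log2 fold change of isosmotic Nrf2-/- against WT cells with SFN (x axis, bars are ±SE) for 3 lists of genes; filled points have an adjusted p under 0.05, and genes at 0 counts in both libraries of a group, and 1 open point, are left out. The 9 called genes described as bound by Grhl2 are filled and right of 0, while the filled mesenchymal markers lie on both sides, with Foxd1 and Zeb1 farthest left.

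The 6 h stress comparison asked how HS changed the members in WT cells, with each pretreatment set against its own isosmotic libraries. Pax2, Pax8, Elf3 and Emx2 rose and Grhl2 fell, with DMSO and with SFN, while Gata2, Gata3 and Tfcp2l1 did not pass the test in either. In each, 5 of 8 members were called, where 45.9% of all genes were called with DMSO (23.9% higher, 22.0% lower) and 47.6% with SFN (24.7% higher, 22.9% lower). The members' median log2 fold change was 0.87 with DMSO and 0.75 with SFN, beside 0.048 and 0.085 over all genes.

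Pax2 rose from 119 and 119.7 CPM in isosmotic WT DMSO libraries to 1136 and 1146 CPM after 6 h, 9.56-fold (log2 fold change 3.26, SE 0.094, adjusted p = 1.49e-11). With SFN it rose from 139 and 146 to 949 and 1041 CPM, 6.98-fold (log2 fold change 2.80, SE 0.092, adjusted p = 4.19e-11). Pax8 rose from 93.0 and 100.2 to 715 and 730.4 CPM with DMSO, 7.48-fold (log2 fold change 2.90, SE 0.10, adjusted p = 1.12e-10). All 4 libraries at 6 h lay far above the other 12 libraries for both Pax genes, and with SFN the rise of Pax8, from 91.3 and 101 to 669 and 681 CPM, was 7.02-fold (adjusted p = 8.58e-11).

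Emx2 and Elf3 rose less. Emx2 went from 35.3 and 35.5 to 70.8 and 74.4 CPM with DMSO (2.05-fold, SE 0.15 on the log2 scale, adjusted p = 4.39e-05), and from 31.8 and 30.7 to 82.1 and 84.1 CPM with SFN (2.66-fold, adjusted p = 2.52e-06). Elf3 went from 29.8 and 31.7 to 49.9 and 49.9 CPM with DMSO (1.62-fold, SE 0.11, adjusted p = 0.000173), and from 26.2 and 25.8 to 51.7 and 53.8 CPM with SFN (2.03-fold, adjusted p = 5.39e-06). In neither gene did the libraries at 6 h overlap those at any other time or in Nrf2-/- cells.

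Grhl2 fell from 39.9 and 34.1 to 19.7 and 17.2 CPM with DMSO, 2.0-fold lower (log2 fold change -1.0, SE 0.12, adjusted p = 6.99e-06). With SFN the levels were 25.2 and 26.9 CPM before and 19.1 and 18.7 CPM after, 1.38-fold lower (log2 fold change -0.47, SE 0.11, adjusted p = 0.00399). The libraries at 6 h overlapped between the pretreatments, and the isosmotic libraries did not. Tfcp2l1 had log2 fold changes of 0.10 (SE 0.18) and 0.017 (SE 0.18) at 6 h, with adjusted p of 0.681 and 0.954.

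The GATA factors were low and varied between replicates. Gata2 had 97 and 72 counts in isosmotic WT DMSO libraries and 183 and 106 at 6 h, a log2 fold change of 1.14 (SE 0.46, adjusted p = 0.0547) that DESeq2 called, and with SFN it was 0.47 (SE 0.45, adjusted p = 0.417). Gata3 had log2 fold changes of -0.57 with DMSO (SE 0.41, adjusted p = 0.290) and 0.083 with SFN (SE 0.43, adjusted p = 0.894). Emx1 was at 0 in the isosmotic WT libraries and at 7 counts over the DMSO and 10 over the SFN libraries at 6 h, at least 3.04-fold and 4.59-fold higher against a floor of 3 counts over the group.

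Between 1 h and 6 h, a comparison added after values had been seen, 6 of 8 members were called with DMSO (42.4% of all genes, 20.4% higher and 22.0% lower) and 5 with SFN (42.6%, 20.9% higher and 21.7% lower). Pax2 rose 7.68-fold and 7.10-fold, Pax8 7.01-fold and 6.50-fold, Emx2 2.91-fold and 3.21-fold, and Elf3 2.04-fold and 2.29-fold with DMSO and SFN, while Grhl2 was 2.04-fold and 1.89-fold lower. The other call with DMSO was Gata2, 2.38-fold higher (adjusted p = 0.0404), which was not called without either of the WT DMSO libraries at 1 h or the first at 6 h (0.125 to 0.293), nor without any 1 of the 6 WT SFN libraries (0.0520 to 0.0579). These comparisons share their 6 h libraries with those against the isosmotic cells and are not separate evidence.

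Other factors of duct and epithelium changed at 6 h too: 10 of 17 rose and 3 fell with DMSO (median log2 fold change 1.20), and 12 rose and 3 fell with SFN (1.15). Of all genes, 23.9% rose and 22.0% fell with DMSO, and 24.7% rose and 22.9% fell with SFN. Sox9 rose 10.6-fold with DMSO (17.6 to 186 CPM, adjusted p = 2.05e-10), Sim1, a factor of the nephric duct, 11.5-fold (9.87 to 113 CPM, 1.70e-07), Eya1, a transcriptional co-activator, 6.60-fold (2.67e-09) and the zinc finger factor Mecom 5.61-fold (4.07e-09). Of the 11 tested relatives of the members 5 rose and 2 fell with DMSO (45.5% and 18.2%), led by the Ets factor Elf1 (4.23-fold, adjusted p = 1.38e-08). Tfcp2, a relative of Tfcp2l1, was 2.28-fold lower (2.15e-05). Among the 13 ureteric bud signalling genes 4 rose and 5 fell. Their median log2 fold change with DMSO was 0.06, with 1 gene at 0 counts set to its bound. Wnt7b, a ligand of the duct, rose 3.08-fold (adjusted p = 1.21e-07), and Spry1, an inhibitor of receptor tyrosine kinases, was 3.56-fold lower (4.94e-09).

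The genes described as bound by Grhl2 in other epithelia were also read at 6 h. With SFN 8 of 14 were higher and 1 lower, beside 24.7% and 22.9% of all genes (median log2 fold change 0.44 beside 0.085). With DMSO 3 were higher and 2 lower, beside 23.9% and 22.0% (median -0.048 beside 0.048). The list summed to 674 to 682 CPM in isosmotic WT SFN and 1225 to 1313 CPM in isosmotic WT DMSO libraries. At 6 h the sums overlapped (1578 to 1612 CPM with SFN, 1564 to 1586 CPM with DMSO). The part of Grhl2 in these changes was not tested. Cldn4, a tight junction claudin, rose 6.45-fold with SFN (83.1 to 536 CPM, adjusted p = 2.11e-09) and 1.34-fold with DMSO (365 to 489 CPM, 0.0142). Cdh1, the E-cadherin gene, rose 2.88-fold (1.08e-08) and 1.72-fold (5.65e-06), while Spint1 was 1.44-fold (0.000918) and 1.61-fold lower (0.000104).

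Summed levels of markers of several other cell types, and of mature duct cells, also rose at 6 h. The list of general duct epithelium markers overlapped with DMSO, at 3109 to 3525 CPM isosmotic and 3412 to 3481 CPM at 6 h. With SFN it summed to 2226 to 2489.7 CPM isosmotic and 3309 to 3511 CPM at 6 h. Genes with a count numbered 24274 to 25115 in the WT libraries at 6 h and 20449 to 21797 in the isosmotic WT libraries. Of all genes, 23.9% were called higher with DMSO and 24.7% with SFN. The part of this wider gain in the lists below was not tested. Of 7 tested endothelial and immune markers, 5 rose with either pretreatment, and the summed level of all 9 on the list went from 2.69 to 3.36 CPM in isosmotic WT DMSO libraries to 11.6 to 15.3 CPM at 6 h, and from 1.98 to 2.98 CPM to 14.1 to 14.3 CPM with SFN. Cd3e was at 0 in these groups and, in the isosmotic ones, Adgre1 and Tek too. Of 6 tested proximal tubule markers 5 rose with DMSO and 4 with SFN, the sum over all 12 going from 9.51 to 11.7 CPM to 26.0 to 33.3 CPM with DMSO. Of 15 tested mesenchymal and fibroblast markers 10 rose and 1 fell with DMSO and 9 rose and 1 fell with SFN, and their sum went from 3047 to 3261 CPM to 4039 to 4154 CPM with DMSO. Of 6 tested loop of Henle and distal tubule markers 4 rose with either pretreatment (sums of 40.1 to 43.2 CPM and 69.2 to 70.2 CPM with DMSO).

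Principal cell markers of the duct itself summed to 2.29 to 2.54 CPM in isosmotic WT DMSO libraries and 13.4 to 20.1 CPM at 6 h. With SFN they summed to 2.49 to 3.91 CPM and 18.5 to 23.0 CPM. Of 5 tested, 1 was called with DMSO (Fxyd4) and 2 with SFN (Fxyd4 and Aqp2). Of all genes, 23.9% and 24.7% were called higher, so these few calls do not set the list apart. Intercalated cell markers summed to 0.572 to 0.685 CPM and 3.95 to 4.06 CPM with DMSO, with 2 of 4 called. The part of any of these lists in the members' changes was not tested.

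Some members share bases with genes on the other strand, and whether counting used strand is not stated. Gm13415, which shares 367 exon bases (6.06%) with Pax8, rose from 0.834 to 5.66 CPM at 6 h with DMSO (6.78-fold, adjusted p = 3.03e-05), and Emx2os, which shares 264 (8.79%) with Emx2, from 1.17 to 2.56 CPM (2.19-fold, 0.00314). Gm16136, which shares 169 bases (1.96%) with Grhl2, fell from 2.35 to 0.606 CPM (0.00179). Gm26642, which shares 162 exon bases (7.31%) with Elf3, stood at 0.435 CPM before and 0.467 CPM at 6 h with DMSO (log2 fold change 0.11, SE 0.76, adjusted p = 0.930), while Elf3 was called higher. In each pair the antisense gene was far lower than the member, and its own reads cannot be told from those of the member.

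**Figure D4:**
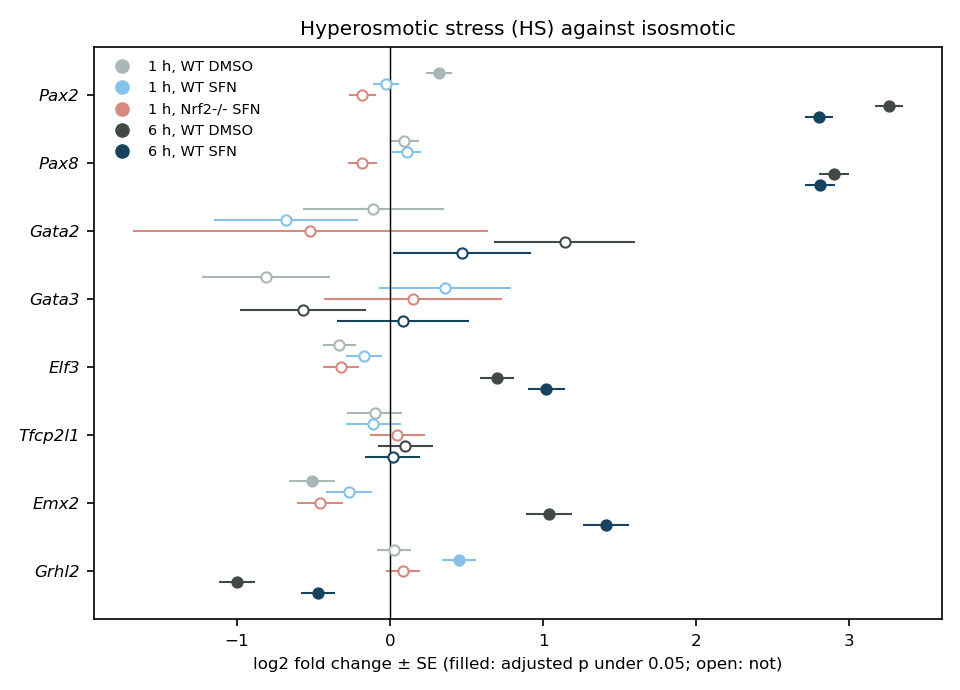
Log2 fold change of HS against isosmotic cells (x axis, bars are ±SE) for the 8 tested members at 1 h (light points) and 6 h (dark points); filled points have an adjusted p under 0.05. Pax2 and Pax8 at 6 h lie between 2.80 and 3.26, Elf3 and Emx2 are filled right of 0 and Grhl2 left of 0 at 6 h, and few points are filled at 1 h.

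After 1 h of HS the members had moved little. With DMSO 2 of 8 were called, where 11.2% of all genes were (7.10% higher, 4.11% lower). Pax2 rose from 119 and 119.7 to 144 and 153 CPM (1.25-fold, log2 fold change 0.32, SE 0.087, adjusted p = 0.0292), and Emx2 went from 35.3 and 35.5 to 24.3 and 25.6 CPM (1.42-fold lower, log2 fold change -0.51, SE 0.15, adjusted p = 0.0372). Neither call held when either of the 2 libraries at 1 h was left out (adjusted p = 0.104 and 0.230 for Pax2, 0.218 and 0.134 for Emx2) or either isosmotic library (0.137 and 0.162 for Pax2, 0.126 and 0.169 for Emx2). Pax2 also lost its call without either WT DMSO library at 6 h or either WT SFN library at 1 h (0.0571 to 0.0617), and Emx2 without any of the other 8 WT libraries (0.0508 to 0.0583).

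With SFN 1 of 8 members was called at 1 h (9.52% of all genes, 5.94% higher and 3.58% lower): Grhl2 went from 25.2 and 26.9 to 34.9 and 36.4 CPM (1.37-fold, log2 fold change 0.45, SE 0.11, adjusted p = 0.0217), a call that did not hold without any 1 of these 4 libraries (0.0909 to 0.161). In Nrf2-/- cells edgeR called 0 of 8 members at 1 h (7.17% of all genes, 4.36% higher and 2.81% lower), with 2 at an unadjusted p under 0.05 (Elf3 and Emx2), and DESeq2 called 1 (Emx2). This count hung on the first Nrf2-/- library at 1 h: without it 4 members were called (Tfcp2l1, Elf3, Pax8 and Emx2), and without the second 1 (Tfcp2l1). The 1 h response differed between Nrf2-/- and WT cells with SFN for 0 members by the interaction test in edgeR (0.123% of all genes, 0.0615% in each direction), with 2 at an unadjusted p under 0.05 and 0 by DESeq2. Without the first Nrf2-/- library at 1 h it was 3 (Tfcp2l1, Pax8 and Emx2).

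SFN alone left most members within the spread of the test. In isosmotic WT cells 1 of 8 was called, where 2.84% of all genes were (1.09% higher, 1.76% lower): Grhl2 stood at 39.9 and 34.1 CPM with DMSO and at 25.2 and 26.9 CPM with SFN (1.42-fold lower, log2 fold change -0.50, SE 0.11, adjusted p = 0.0265). The groups did not overlap, but without the first isosmotic DMSO library the adjusted p was 0.207, and without either isosmotic SFN library 0.186 and 0.135. The call was also lost without any 1 of the 4 WT libraries at 1 h (0.0539 to 0.0545). Gata3 was at 5.81 and 6.65 CPM with DMSO and 2.65 and 2.59 CPM with SFN, with a log2 fold change of -1.25 (SE 0.42, adjusted p = 0.152). Pax2 was at 119 and 119.7 CPM with DMSO and 139 and 146 CPM with SFN (log2 fold change 0.26, SE 0.087, edgeR adjusted p = 0.153). In this isosmotic comparison 3 members had an unadjusted p under 0.05 (Pax2, Gata3 and Grhl2), and DESeq2 called 2 (Grhl2 and Pax2). At 1 h and at 6 h of HS edgeR called 0 members (0.0923% and 0.0410% of all genes), with 0 and 1 (Pax2) at an unadjusted p under 0.05, and DESeq2 called 0 in both.

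The difference between the SFN and the DMSO response to HS was tested as an interaction, in comparisons added after values had been seen. At 1 h edgeR called 0 members (0.559% of all genes, 0.487% higher and 0.0718% lower) and at 6 h 0 (0.759%, 0.595% higher and 0.164% lower), in each with 2 at an unadjusted p under 0.05, Pax2 and Grhl2, while DESeq2 called 1, Pax2, in each. At 6 h the rise of Pax2 was smaller with SFN by a log2 difference of -0.45 (adjusted p = 0.145), and the fall of Grhl2 smaller by 0.54 (adjusted p = 0.217).

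Of the 14 genes described as bound by Grhl2, 0 were higher and 7 lower with SFN in isosmotic WT cells, beside 1.09% and 1.76% of all genes. Their median log2 fold change was -0.64 beside 0 over all genes. Cldn4 was 4.39-fold lower (365 to 83.1 CPM, adjusted p = 1.26e-06), Cldn7 1.66-fold lower (0.0491) and Cdh1 1.58-fold lower (0.000559). The isosmotic WT SFN libraries are also the WT arm of the isosmotic genotype comparison, so the 2 comparisons share libraries. The 14 genes summed to 1706 to 1767 CPM in isosmotic Nrf2-/- SFN, 1225 to 1313 CPM in WT DMSO and 674 to 682 CPM in WT SFN libraries. The size of the genotype difference thus depends on the WT arm. Against WT DMSO only Cdh1 and Esrp1, a splicing regulator of epithelia, are given here. Both were picked after their values were seen and do not stand for the other genes of the list. Nrf2-/- SFN libraries were higher for Cdh1 (438 and 438 against 227 and 224 CPM) and Esrp1 (174 and 181 against 74.0 and 72.2 CPM). In this comparison genotype and SFN cannot be told apart.

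The genes with profiles most like each member's were found by Pearson's r of log2 CPM over the 16 libraries, among 12290 genes with a mean of at least 50 counts. For Pax2 they were Man1a (r = 0.995), Trim47 (0.995) and Loxl4 (0.994), and for Pax8 Cdc6 (0.995), Atp1b1 (0.994) and Uvrag (0.994). For Gata2 they were Arrb1 (0.986), Jag2 (0.978) and Mfge8 (0.978), and for Gata3, the member with the lowest values, Adm (0.956), Tap2 (0.950) and Septin4 (0.949). Fastkd3 (0.991), Rrad (0.989) and Poldip3 (0.988) were nearest to Elf3, Chml (0.987), Lgr6 (0.984) and Stag2 (0.984) to Tfcp2l1, and Camta1 (0.985), Pla2g4c (0.983) and Eny2 (0.982) to Emx2. Near to Grhl2 were Rab11fip5 (0.993) and Asap2 (0.988). The points share 8 groups, so these values describe group differences that genes have in common, and no gene in this set overlaps its member in the genome.

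The loci, in GENCODE annotation of GRCm38, place each member apart. Pax2 is at chr19:44756045-44837871 and Emx2 at chr19:59458372-59465357 (both on the plus strand), Pax8 at chr2:24420560-24475599 and Gata3 at chr2:9857078-9890034 (both minus). Gata2 is at chr6:88193891-88207032 and Emx1 at chr6:85187438-85204462 (both plus), Elf3 at chr1:135253575-135258568 (minus) and Tfcp2l1 at chr1:118627945-118685168 (plus). Grhl2 is at chr15:37233036-37363569 (plus). All 9 are protein-coding genes.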

How the data were processed

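Total RNA of 16 mIMCD3 libraries had been sequenced on Illumina NovaSeq. According to the methods of the study, reads were aligned to mm10 with Hisat2, sorted with Samtools and counted per gene with FeatureCounts. The submitters' processing notes name Bowtie2 in place of Hisat2. Versions, annotation and strand setting are not given in the sources used here. The authors deposited raw counts per gene symbol, 1 table per library. Lines with no symbol (5 in all) were left out. Among counts of 1 to 10, between 58.0% and 68.5% were even in each library. Whether both mates of a pair were counted is not stated. The intervals given cover counting error only, and would be too narrow even for that if both mates were counted. The extraction note names another cell source (primary TEC) than all other labels, which were followed. Groups and replicate numbers came from the labels.

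The main test was edgeR 4.0.16 (R 4.3.3): TMM, filterByExpr, robust quasi-likelihood F-test with 1 coefficient per group over 16 libraries (8 residual degrees of freedom), Benjamini-Hochberg adjustment over 19509 genes. SE was the absolute log2 fold change divided by the root of F. Log2 CPM for likeness used a prior count of 2. The procedure was tested on simulated data. Alternatives were DESeq2 1.42.0, other scaling, filters and samples, a replicate block, and each library left out. The members and lists were chosen with earlier results of these data known. Genes of a list were named where called, or, where over 4 were, the 4 with the largest change and a mean of at least 50 counts. Cdh1, Esrp1, Krt8, Krt18, Spint1, Fn1, Col3a1, Col1a2 and the antisense genes were named after their values were seen. Some genes that this rule names are not reported here.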

Additional observations from a re-analysis of the deposited data

Results flagged for a closer look

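Of the responses to HS, 3 had opposite signs in the 2 conditions compared, with libraries that did not overlap. The interaction test was passed by none of them. Gata3 at 1 h was lower than isosmotic in both WT DMSO libraries (2.81 and 4.35 CPM against 5.81 and 6.65) and higher in both WT SFN libraries (3.10 and 3.65 against 2.65 and 2.59), a difference of 1.17 on the log2 scale, SFN minus DMSO (SE 0.59, edgeR adjusted p = 0.703). At 6 h the difference for Gata3 was 0.65 (SE 0.60, adjusted p = 0.851), from 4.43 and 3.98 CPM with DMSO and 2.85 and 2.71 CPM with SFN. Pax8 at 1 h was higher than isosmotic in WT SFN libraries (104 and 104 against 91.3 and 101 CPM) and lower in Nrf2-/- SFN libraries (57.6 and 50.3 against 60.4 and 61.8 CPM), a difference of -0.29 on the log2 scale, Nrf2-/- minus WT (SE 0.13, adjusted p = 0.673). Groups of 2 libraries were not tested for outlying libraries.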

How the results depend on the processing

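Of the 39 member differences called, none changed sign in 910 refits and 46 refits lost the call, all of them of Pax2 and Emx2 at 1 h with DMSO, Grhl2 at 1 h with SFN or for SFN against DMSO, Gata2 from 1 h to 6 h, and Tfcp2l1 in the genotype comparison at 1 h. The counts of members called in the genotype comparisons (5 to 8), at 6 h (5 to 7) and from 1 h to 6 h (5 to 7) stayed within 1.5 times of those in the report. A filter of at least 10 counts in every library left 6 members, without Gata2 and Gata3. The cause of the changes below was not tested. At 1 h with DMSO 2 became 1 with that filter, with no filter and with the replicate block, and 4 with only the 12 WT libraries or those compared. At 1 h with SFN 1 became 0 with no filter, and 2 with only the 12 WT libraries or without the 2 Nrf2-/- libraries at 1 h. In Nrf2-/- cells at 1 h 0 became 1 with DESeq2 or no filter. For SFN against DMSO, isosmotic, 1 became 2 with DESeq2, no filter or only the libraries compared, and 3 with the 12 WT libraries or without the Nrf2-/- libraries at 1 h. The SFN difference of the 1 h response went from 0 to 1 with DESeq2 or the 12 WT libraries, and that of the 6 h response from 0 to 1 with DESeq2 or the libraries compared, and to 2 with the 12 WT libraries or without the Nrf2-/- libraries at 1 h.

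Leaving out 1 library at a time, the counts ranged from 0 to 4 at 1 h in Nrf2-/- cells, 0 to 3 at 1 h with DMSO, 0 to 2 at 1 h with SFN, 0 to 3 for the genotype difference and 0 to 1 for the SFN difference of the 1 h response, 0 to 2 for the SFN difference of the 6 h response and 0 to 3 for SFN against DMSO, isosmotic. Where a group keeps 1 library, it is assumed to vary like the other groups.

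Same-numbered libraries did not deviate together (correlations of -0.079 to 0.12 over 28 pairs of groups), so the numbers were not taken as pairs, and the replicate block changed no other count by over 1.5 times than the 2 to 1 above. Gata2 from 1 h to 6 h with DMSO had an adjusted p of 0.0537 with it.

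Signs changed only for differences that were not called. With other settings these were Pax2 at 1 h with SFN (0.011, at least 10 counts), Tfcp2l1 at 6 h with SFN (-0.011 with no filter, and -0.011 without the 2 Nrf2-/- libraries at 1 h), Pax8 in the SFN difference of the 1 h response (-0.0037 with DESeq2, -0.0031 with the 12 WT libraries or RLE factors) and Pax8 for SFN against DMSO, isosmotic (0.013, 0.011, 0.012 and, with no filter, 0.0020). The following log2 ranges are those of sign changes with 1 library left out. In the genotype difference of the 1 h response it was Elf3 -0.33 to 0.0081, Emx2 -0.50 to 0.072, Gata2 -4.07 to 4.90, Gata3 -1.02 to 1.67 and Tfcp2l1 -0.26 to 0.49. In the genotype comparison at 1 h it was Emx2 -0.23 to 0.33. At 1 h in Nrf2-/- cells it was Gata2 -4.76 to 4.22, Gata3 -0.66 to 2.03, Grhl2 -0.017 to 0.17 and Tfcp2l1 -0.37 to 0.37. At 1 h in WT DMSO cells it was Gata2 -0.36 to 0.18, Grhl2 -0.087 to 0.14 and Tfcp2l1 -0.22 to 0.032. For SFN against DMSO at 6 h it was Gata2 -0.68 to 0.019 and Grhl2 -0.064 to 0.13. From 1 h to 6 h with DMSO it was Gata3 -0.055 to 0.58. For SFN against DMSO at 1 h it was Gata3 -0.37 to 0.27 and Tfcp2l1 -0.085 to 0.011. At 1 h in WT SFN cells it was Pax2 -0.063 to 0.011. In the SFN difference of the 1 h response it was Pax8 -0.056 to 0.094 and Tfcp2l1 -0.15 to 0.11. For SFN against DMSO, isosmotic it was Pax8 -0.083 to 0.067 and Tfcp2l1 -0.14 to 0.11. At 6 h with DMSO it was Tfcp2l1 -0.026 to 0.23. At 6 h with SFN it was Tfcp2l1 -0.10 to 0.11. In the SFN difference of the 6 h response it was Tfcp2l1 -0.22 to 0.031. RLE factors moved the median log2 fold change of all genes to 0.16 at 6 h with SFN.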
